A study of Mus musculus with 14 samples.

Results

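The genes described here are 10 markers of brain endothelium and of the blood-brain barrier, out of 43346 genes in the table. They were chosen by name. The identifiers of Cldn5, Pecam1, Cdh5, Flt1, Kdr, Tek, Slco1a4, Abcb1a, Ly6c1 and Slc19a3 were looked up in the mouse GENCODE annotation, and all 10 were found. The counts came from live GFP-positive hippocampal cells of wild-type C57BL/6 mice, sorted at day 14 and described as adult-born granule cells, which are neurons that the dentate gyrus adds in adult life. Each of the 14 libraries was made from 800 to 1000 cells with SMART-Seq v4, which copies polyadenylated RNA over its full length and suits very small inputs.

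The groups crossed a designer receptor with seizures. DREADD Pilo (3 libraries) held cells labelled with the designer receptor (DREADD), which the labels use for silencing, from mice given pilocarpine. CAG-GFP Pilo (4 libraries) held cells labelled CAG-GFP from mice given pilocarpine. DREADD Sham (4 libraries) and CAG-GFP Sham (3 libraries) held the matching cells from mice without seizures. All 4 groups received clozapine-N-oxide (CNO), the ligand of the receptor. Pilocarpine, a muscarinic agonist, was given at 300 mg/kg after scopolamine methyl nitrate and terbutaline, and status epilepticus was stopped after 3 hours with diazepam. The labels do not say whether sham mice received these companion drugs, how the receptor and GFP were delivered, or which promoter drove the receptor. No label ties a library to an animal of its own, and a p-value here covers no more than the variation among these libraries.

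Endothelial cells line brain capillaries and are joined by tight junctions, which close the gaps between them. Traffic between blood and brain therefore passes through the cells, by way of carriers that bring nutrients in and pumps that return foreign compounds to the blood. Receptors for VEGF and for angiopoietins govern the growth and stability of these vessels, and pericytes, the mural cells of capillaries, sit against their outer wall.

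Sequencing depth varied, with 10613291 total counts in the shallowest library (CAG-GFP Pilo 2) and 38614639 in the deepest (CAG-GFP Pilo 4). The share of counts on pseudogenes split the libraries into 2 sets, one at 0.117% to 0.2% (set 1) and one at 4.33% to 8.12% (set 2). All CAG-GFP Sham libraries were in set 1, with DREADD Sham 1 and 2 and CAG-GFP Pilo 3 and 4, and all DREADD Pilo libraries were in set 2, with DREADD Sham 3 and 4 and CAG-GFP Pilo 1 and 2. Ratios within a set use set 1 against CAG-GFP Sham and set 2 between DREADD Pilo and the other groups. Levels are in CPM, counts scaled to a common library size with TMM factors. The label of the sorted cells was checked against 8 mature granule cell markers. Their summed level was 95.7 to 143 CPM in DREADD Pilo, 311 to 1045 CPM in CAG-GFP Pilo, 109 to 736 CPM in DREADD Sham and 62.9 to 95.4 CPM in CAG-GFP Sham. The label gives adult-born cells, and 7 immature neuron markers summed to 14.3 to 539 CPM in DREADD Pilo, 553 to 1437 CPM in CAG-GFP Pilo, 894 to 1985 CPM in DREADD Sham and 318 to 433 CPM in CAG-GFP Sham. Oligodendrocyte markers summed to 392 to 42411 CPM in DREADD Pilo and 1313 to 37945 CPM in CAG-GFP Pilo. They summed to 18951 to 40453 CPM in DREADD Sham and 541 to 689 CPM in CAG-GFP Sham. Microglial markers summed to 226 to 32744 CPM in DREADD Pilo and 6379 to 11917 CPM in CAG-GFP Pilo. Their sums were 804 to 12231 CPM in DREADD Sham and 5261 to 5491 CPM in CAG-GFP Sham. Prox1 and Dcx, which define granule cells and immature neurons, were at 0 in DREADD Pilo 3, where ependymal and choroid plexus markers summed to 161480 CPM. The granule cell markers C1ql2, Tdo2 and Icam5 were also at 0 in that library, as were Tdo2 and Icam5 in DREADD Sham 3 and 4. DREADD Pilo 3, DREADD Sham 3, DREADD Sham 4 and CAG-GFP Sham 3 each had a count for 4 of the 8 granule cell markers. Most of the 95.7 CPM of granule cell markers in DREADD Pilo 3 was Dsp, at 66.8 CPM, and Calb1, Plk5 and Rasl10a made up the rest.

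Flt1, Tek and Ly6c1, which varied closely together across libraries, are shown with their promoters, and Slc19a3, counted almost only in DREADD Pilo, is shown beside them. The sequences are RefSeq, GRCm38.p6, the 150 bases before the start of the gene, printed 5′ to 3′ on the gene's strand. Flt1 lies on the minus strand at chr5:147726012-147726161, Tek on the plus strand at chr4:94739139-94739288, Ly6c1 on the minus strand at chr15:75048838-75048987 and Slc19a3 on the minus strand at chr1:83038449-83038598. Capitals mark AGGAAG (a core bound by ETS factors), AACAAT (a core bound by SOX factors) and TATAAA, searched on both strands.
Flt1: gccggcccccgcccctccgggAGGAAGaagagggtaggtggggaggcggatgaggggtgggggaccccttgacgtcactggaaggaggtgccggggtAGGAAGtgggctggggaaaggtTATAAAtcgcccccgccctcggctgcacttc
Tek: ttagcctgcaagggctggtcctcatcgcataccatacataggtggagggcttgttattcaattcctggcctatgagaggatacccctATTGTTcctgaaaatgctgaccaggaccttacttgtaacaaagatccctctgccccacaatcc
Ly6c1: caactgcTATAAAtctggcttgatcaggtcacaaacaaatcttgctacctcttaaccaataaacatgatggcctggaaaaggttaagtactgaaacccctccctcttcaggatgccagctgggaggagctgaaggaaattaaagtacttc
Slc19a3: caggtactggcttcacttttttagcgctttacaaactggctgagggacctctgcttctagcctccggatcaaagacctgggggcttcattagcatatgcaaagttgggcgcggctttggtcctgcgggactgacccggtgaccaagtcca

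Promoters of 8 members were in the RefSeq table, with 2 starts for Ly6c1, and Pecam1 and Cdh5 were not. In the 250 bases before the start, AGGAAG occurred for 3 of the 8 members (Flt1, Slco1a4, Abcb1a), when the first Ly6c1 start is used, and in 29.2% of 27025 promoters. AACAAT occurred for Tek and Slco1a4, against 9.65% of promoters, and TATAAA for Flt1 and Ly6c1, against 13.0%. In Flt1 the first base of TATAAA lay 31 bases before the start. The promoters also differed in CpG pairs, with 23 in Flt1, 16 in Kdr, 12 in Cldn5, 8 in Slc19a3, 2 in Tek and 0 in Slco1a4, against a median of 6 over all promoters. A match to these letters is a description of the sequence.

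A second sequence question concerns near copies. Ly6c1 and Ly6c2 share 90.7% of aligned coding bases, with an identical run of 188 bases, and Abcb1a and Abcb1b share 88.0%, with a run of 338. How reads matching both copies were counted is not given in the sources used here, so the split within each pair is uncertain. The first 150 bases of the longest open reading frame (GENCODE M21, GRCm38, both genes on the minus strand of chromosome 15) show how few positions separate the Ly6c pair. Capitals mark the 6 bases that differ.
Ly6c1: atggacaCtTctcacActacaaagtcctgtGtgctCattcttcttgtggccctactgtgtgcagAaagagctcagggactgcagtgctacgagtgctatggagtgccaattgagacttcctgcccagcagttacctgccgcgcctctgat
Ly6c2: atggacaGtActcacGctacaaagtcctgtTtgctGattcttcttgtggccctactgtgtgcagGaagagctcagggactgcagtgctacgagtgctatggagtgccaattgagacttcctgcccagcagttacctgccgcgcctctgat

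Endothelial counts differed widely between libraries of the same group. The summed level of the 10 genes was 51.3, 1194 and 374 CPM in the DREADD Pilo libraries, 90.7, 62.7, 148 and 0 CPM in CAG-GFP Pilo, 27.2, 12.1, 652 and 505 CPM in DREADD Sham and 2.49, 3.90 and 6.34 CPM in CAG-GFP Sham. The highest 3 were DREADD Pilo 2, DREADD Sham 3 and DREADD Sham 4, and all CAG-GFP Sham libraries lay below every other library except CAG-GFP Pilo 4. That library had no count of any of the 10 genes although it was the most deeply sequenced. A count of 0 there allows up to 3 counts per gene. It also had the fewest genes detected, 9372, and 0 counts of Ctnnb1, the beta-catenin gene, which stood at 149 to 615 CPM in every other library. All 10 genes had a count in DREADD Pilo 2, DREADD Pilo 3 and CAG-GFP Pilo 3, and 1 had a count in CAG-GFP Sham 1 and 3. Since CAG-GFP Pilo 4 had no count of any, each CAG-GFP Pilo ratio within set 1 rests on counts of CAG-GFP Pilo 3 alone. In bulk libraries, fewer endothelial cells and less RNA per cell cannot be told apart.

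**Figure D1:**
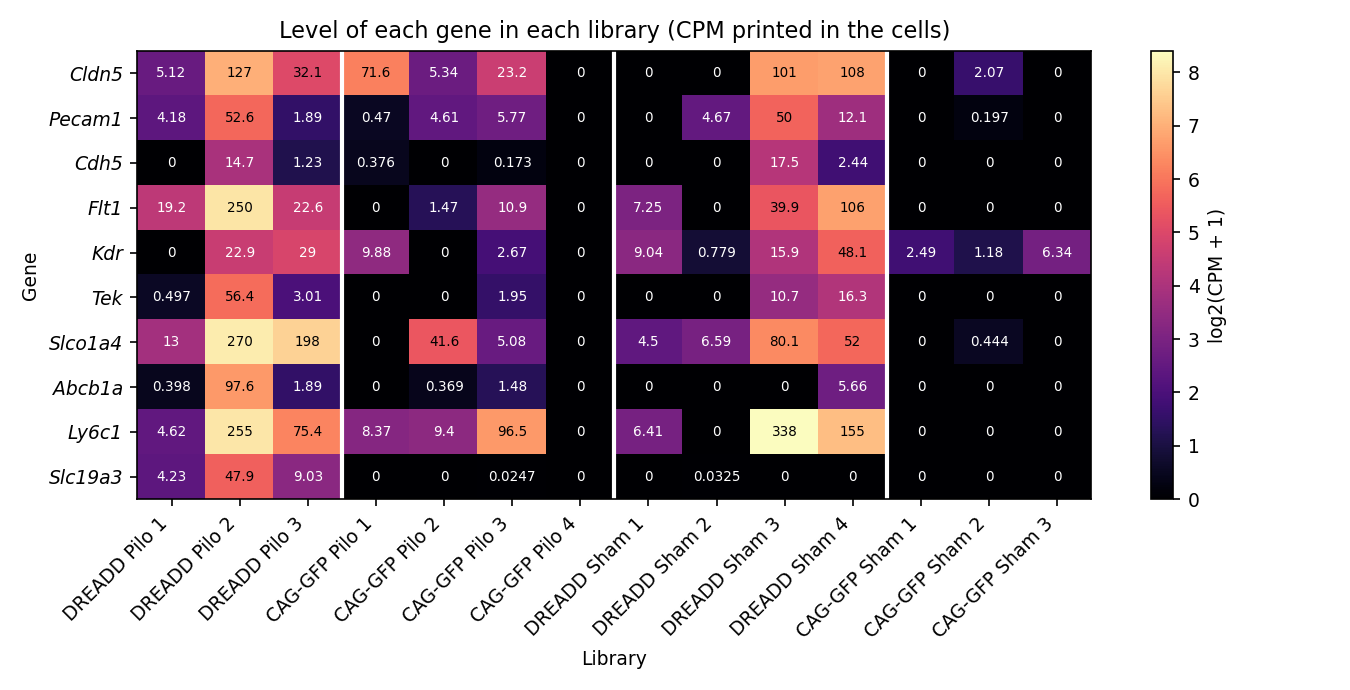
Level of each of the 10 genes (rows) in each of the 14 libraries (columns), as CPM printed in the cells and as log2(CPM + 1) in colour. DREADD Pilo 2, DREADD Sham 3 and DREADD Sham 4 hold most of the signal, while CAG-GFP Pilo 4 is at 0 in all 10 genes and CAG-GFP Sham is at 0 in all but 4.

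The same 3 libraries held 58.6% (Kdr) to 96.1% (Abcb1a) of the summed CPM of each gene. They also had the highest summed levels of 12 pericyte and smooth muscle markers, at 927 CPM in DREADD Pilo 2, 1179 CPM in DREADD Sham 3 and 1630 CPM in DREADD Sham 4, against 10.4 to 355 CPM in the other libraries. Between 11 and 12 of the 12 markers were detected in each of the 3. Of the pericyte markers, Rgs5 stood at 410, 329 and 564 CPM and Vtn at 274, 192 and 465 CPM, while Abcc9 was at 8.78, 0 and 14.2 CPM. The smooth muscle markers were lower in DREADD Pilo 2 than in DREADD Sham 3 and 4: Acta2 stood at 3.43, 161 and 131 CPM, Tagln at 5.35, 275 and 132 CPM and Myh11 at 0, 64.4 and 6.31 CPM, each in DREADD Pilo 2, DREADD Sham 3 and DREADD Sham 4. Haemoglobin and other blood cell markers summed to 6363, 2487 and 1581 CPM in the 3 libraries, but to 18308 CPM in CAG-GFP Pilo 4 and 6946 CPM in DREADD Sham 1. The leukocyte markers of that list, S100a8 and S100a9, were at 0 in the 3. The blood sums of the 3 thus came from haemoglobin genes and Alas2. Fibroblast markers stayed at 2.77 to 44.1 CPM in the 3, with Lum and Col3a1 at 0, against up to 124 CPM elsewhere. The part of these other cell types in the group differences below was not tested.

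**Figure D2:**
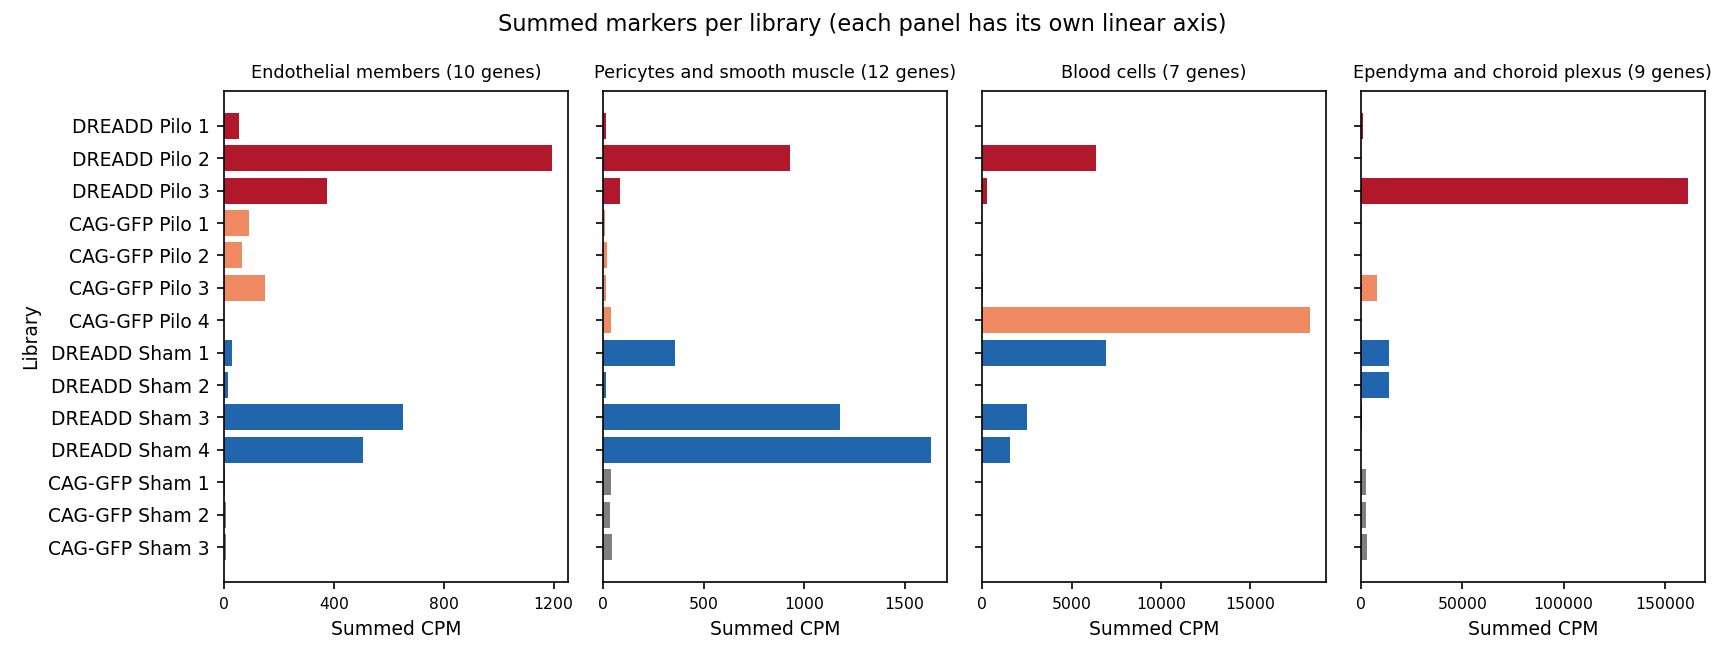
Summed CPM per library of the 10 endothelial genes and of markers of pericytes and smooth muscle, of blood cells, and of ependyma and choroid plexus, each panel on its own linear axis from 0. The 3 libraries with the highest endothelial sums, 505 to 1194 CPM, have the 3 highest pericyte sums, while the highest blood sum is in CAG-GFP Pilo 4 and the highest ependymal sum in DREADD Pilo 3.

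The members were picked with earlier results of these data in view, so their levels by group are a description and carry no test. Levels of different genes were compared per kilobase of exon. Averaged over the 14 libraries, Ly6c1 was highest at 40.4 CPM per kb, followed by Cldn5 at 24.0, Slco1a4 at 7.47, Flt1 at 2.42, Pecam1 at 1.57, Slc19a3 at 1.43, Abcb1a at 1.40, Tek at 1.35, Kdr at 1.17 and Cdh5 at 0.618 CPM per kb. The SD over libraries exceeded the mean for all 10 genes (64.9 for Ly6c1, 33.1 for Cldn5). The genes were measured in the same libraries and varied together (r = 0.861 for Cldn5 and Ly6c1). These SDs are therefore not the spread of a difference between genes, and the order was not tested.

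Among the junction genes, Cldn5 (ENSMUSG00000041378, chr16:18776847-18778262, plus strand, GRCm38) encodes claudin-5, the main tight junction strand protein of brain endothelium. It stood at 5.12, 127 and 32.1 CPM in DREADD Pilo, at 71.6, 5.34, 23.2 and 0 CPM in CAG-GFP Pilo, at 0, 0, 101 and 108 CPM in DREADD Sham and at 0, 2.07 and 0 CPM in CAG-GFP Sham. The means were 54.8 ± 64.2 CPM for DREADD Pilo (SD, n = 3), 25.0 ± 32.6 CPM for CAG-GFP Pilo (n = 4), 52.1 ± 60.3 CPM for DREADD Sham (n = 4) and 0.691 ± 1.20 CPM for CAG-GFP Sham (n = 3). Every SD exceeded its mean. The CAG-GFP Pilo mean was 36.2-fold that of CAG-GFP Sham, and 16.8-fold within set 1. The DREADD Sham mean was 75.4-fold that of CAG-GFP Sham, but this ratio came from DREADD Sham 3 and 4 alone: both DREADD Sham libraries of set 1 had 0 counts, which puts their level at most at 0.0607 times the CAG-GFP Sham mean. DREADD Pilo averaged 2.19-fold CAG-GFP Pilo, 1.43-fold within set 2 and 0.743-fold without DREADD Pilo 2. It averaged 1.05-fold DREADD Sham, 0.526-fold within set 2 and 0.357-fold without DREADD Pilo 2.

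Pecam1 (ENSMUSG00000020717, chr11:106654217-106750628, minus strand) encodes the adhesion molecule CD31, which platelets and some leukocytes also carry. It stood at 4.18, 52.6 and 1.89 CPM in DREADD Pilo, at 0.470, 4.61, 5.77 and 0 CPM in CAG-GFP Pilo, at 0, 4.67, 50.0 and 12.1 CPM in DREADD Sham and at 0, 0.197 and 0 CPM in CAG-GFP Sham. DREADD Pilo 2 and DREADD Sham 3 each lay above every other library by a wide margin. CAG-GFP Pilo averaged 41.2-fold CAG-GFP Sham (43.9-fold within set 1) and DREADD Sham 254-fold CAG-GFP Sham (35.5-fold within set 1), over a CAG-GFP Sham level that rested on 4 counts in all. DREADD Pilo averaged 7.20-fold CAG-GFP Pilo, 7.70-fold within set 2 and 1.12-fold without DREADD Pilo 2. Against DREADD Sham it averaged 1.17-fold over all libraries, 0.629-fold within set 2 and 0.182-fold without DREADD Pilo 2.

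Cdh5 (ENSMUSG00000031871, chr8:104101625-104144511, plus strand) encodes VE-cadherin, the adherens junction protein of endothelium, and was the lowest member per length. Its 621 counts lay mostly in 3 libraries, 14.7 CPM in DREADD Pilo 2, 17.5 CPM in DREADD Sham 3 and 2.44 CPM in DREADD Sham 4. DREADD Pilo held 0, 14.7 and 1.23 CPM, CAG-GFP Pilo 0.376, 0, 0.173 and 0 CPM, DREADD Sham 0, 0, 17.5 and 2.44 CPM, and CAG-GFP Sham 0 throughout. Against a floor of 3 counts over the CAG-GFP Sham libraries, CAG-GFP Pilo was at least 2.72-fold higher (1.71-fold within set 1) and DREADD Sham at least 98.5-fold higher. DREADD Pilo averaged 28.2-fold CAG-GFP Pilo within set 2, over 4 counts in CAG-GFP Pilo. It averaged 1.07-fold DREADD Sham over all libraries and 0.533-fold within set 2. Within set 1, no Cdh5 count was seen in DREADD Sham or CAG-GFP Sham.

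Flt1 (ENSMUSG00000029648, chr5:147561604-147726011, minus strand) encodes VEGF receptor 1, a high-affinity decoy that limits VEGF signalling. It stood at 19.2, 250 and 22.6 CPM in DREADD Pilo, at 0, 1.47, 10.9 and 0 CPM in CAG-GFP Pilo, at 7.25, 0, 39.9 and 106 CPM in DREADD Sham and at 0 in all CAG-GFP Sham libraries. Every DREADD Pilo library lay above every CAG-GFP Pilo library, as did 5.69% of all genes tested. DREADD Pilo averaged 97.4 ± 132 CPM (SD, n = 3) and CAG-GFP Pilo 3.09 ± 5.24 CPM (SD, n = 4), a 31.5-fold ratio that became 6.78-fold without DREADD Pilo 2. Within set 2, where CAG-GFP Pilo had 16 counts in all, it was 132-fold. Against DREADD Sham, DREADD Pilo averaged 2.54-fold over all libraries, 1.33-fold within set 2 and 0.545-fold without DREADD Pilo 2. With DREADD Sham 3 and 4 left out as well, it was 5.78-fold, across library sets. DREADD Sham was at least 761-fold higher than CAG-GFP Sham, and at least 71.8-fold higher within set 1, where DREADD Sham 1 alone had counts.

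Kdr (ENSMUSG00000062960, chr5:75932827-75978458, minus strand), the main signalling receptor for VEGF, differed from the others in CAG-GFP Sham. It was the 1 member with counts in all CAG-GFP Sham libraries, at 2.49, 1.18 and 6.34 CPM. It stood at 0, 22.9 and 29.0 CPM in DREADD Pilo, at 9.88, 0, 2.67 and 0 CPM in CAG-GFP Pilo and at 9.04, 0.779, 15.9 and 48.1 CPM in DREADD Sham. The groups overlapped in every comparison. The CAG-GFP Pilo mean was 0.940-fold that of CAG-GFP Sham and 0.399-fold within set 1, while DREADD Sham averaged 5.52-fold CAG-GFP Sham and 1.47-fold within set 1. DREADD Pilo averaged 17.3 ± 15.3 CPM (SD, n = 3) and DREADD Sham 18.4 ± 20.7 CPM (SD, n = 4), a difference smaller than either SD, and the ratio was 0.541 within set 2. Against CAG-GFP Pilo, DREADD Pilo averaged 3.50-fold within set 2 and 4.62-fold without DREADD Pilo 2.

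Tek (ENSMUSG00000006386, chr4:94739289-94874976, plus strand) encodes TIE2, the receptor for angiopoietins, which steadies mature vessels. It stood at 0.497, 56.4 and 3.01 CPM in DREADD Pilo, at 0, 0, 1.95 and 0 CPM in CAG-GFP Pilo, at 0, 0, 10.7 and 16.3 CPM in DREADD Sham and at 0 in CAG-GFP Sham. A Tek count was seen in 6 libraries, all of DREADD Pilo, CAG-GFP Pilo 3, DREADD Sham 3 and DREADD Sham 4, and the DREADD Pilo and CAG-GFP Pilo levels overlapped. DREADD Pilo averaged 41.0-fold CAG-GFP Pilo, at least 143-fold within set 2, where CAG-GFP Pilo had no count, and 3.60-fold without DREADD Pilo 2. Against DREADD Sham it averaged 2.96-fold over all libraries, 1.48-fold within set 2 and 0.260-fold without DREADD Pilo 2. DREADD Sham was at least 134-fold higher than CAG-GFP Sham, entirely from DREADD Sham 3 and 4.

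**Figure D3:**
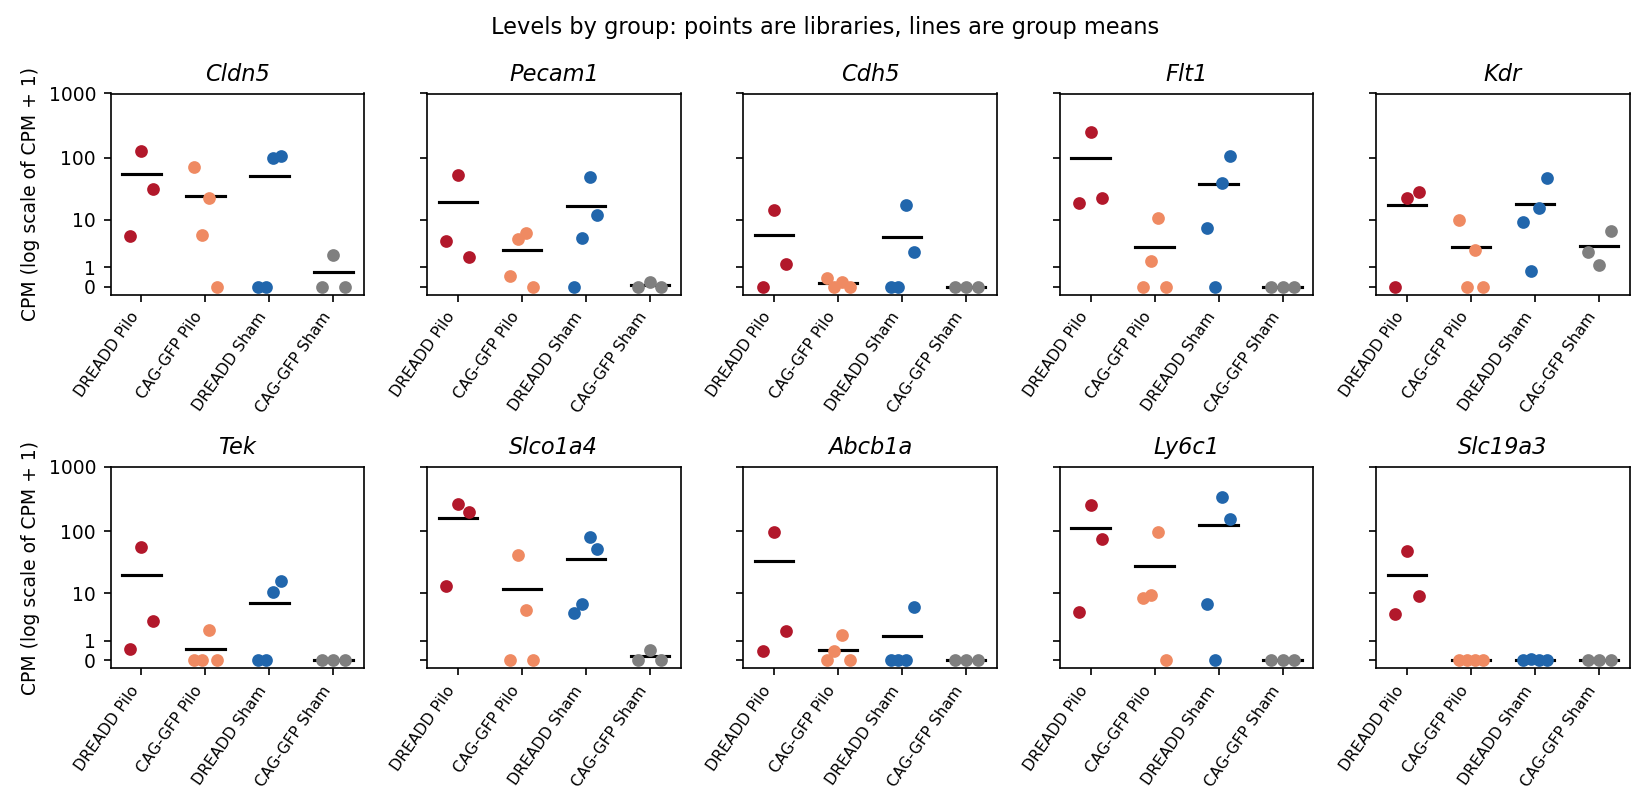
CPM of each gene by group on a log scale of CPM + 1, with each point a library and each line a group mean. In most panels the DREADD Pilo and DREADD Sham points spread over the range of all groups, CAG-GFP Sham lies at or near 0 except for Kdr, and Slc19a3 is above 1 CPM in DREADD Pilo alone.

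Of the transporters, Slco1a4 (ENSMUSG00000030237, chr6:141805440-141856199, minus strand), an organic anion carrier of the barrier in rodents, was highest on average in DREADD Pilo. It stood at 13.0, 270 and 198 CPM there, at 0, 41.6, 5.08 and 0 CPM in CAG-GFP Pilo, at 4.50, 6.59, 80.1 and 52.0 CPM in DREADD Sham and at 0, 0.444 and 0 CPM in CAG-GFP Sham. Each of the 4 DREADD Sham values exceeded each CAG-GFP Sham value, a pattern seen for 9.01% of all genes tested. Their means were 35.8 ± 36.8 CPM (SD, n = 4) and 0.148 ± 0.257 CPM (SD, n = 3), a 242-fold ratio over 9 counts in CAG-GFP Sham, and within set 1 the ratio was 37.4-fold. DREADD Pilo averaged 13.7-fold CAG-GFP Pilo, 7.71-fold within set 2 and 9.05-fold without DREADD Pilo 2. It averaged 4.47-fold DREADD Sham, 2.43-fold within set 2 and 2.95-fold without DREADD Pilo 2. The ratio of Slco1a4 to Cldn5 differed between libraries with at least 20 counts of Cldn5. It was 2.54, 2.12 and 6.17 in DREADD Pilo, 0, 7.78 and 0.219 in CAG-GFP Pilo 1, 2 and 3, 0.796 and 0.482 in DREADD Sham 3 and 4 and 0.214 in CAG-GFP Sham 2. Ependymal and choroid plexus markers summed to 161480 CPM in DREADD Pilo 3 and to 39.9 CPM in CAG-GFP Pilo 2, the libraries with the highest ratios.

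Abcb1a (ENSMUSG00000040584, chr5:8660077-8748575, plus strand) encodes P-glycoprotein, the efflux pump that returns many drugs to the blood. DREADD Pilo 2, at 97.6 CPM, held 90.9% of its summed CPM. The other DREADD Pilo libraries had 0.398 and 1.89 CPM, CAG-GFP Pilo 0, 0.369, 1.48 and 0 CPM, DREADD Sham 0, 0, 0 and 5.66 CPM, and CAG-GFP Sham 0 throughout. DREADD Sham 3 had none although its Cldn5 level was 101 CPM. DREADD Pilo averaged 72.0-fold CAG-GFP Pilo, 181-fold within set 2, over 4 counts in CAG-GFP Pilo, and 2.48-fold without DREADD Pilo 2. Against DREADD Sham it averaged 23.5-fold over all libraries, 11.8-fold within set 2 and 0.810-fold without DREADD Pilo 2. The near copy Abcb1b, which encodes the second mouse P-glycoprotein, was instead highest on average in CAG-GFP Sham. It averaged 7.03 ± 6.75 CPM in DREADD Pilo (SD, n = 3), 13.9 ± 9.95 CPM in CAG-GFP Pilo (n = 4), 6.26 ± 8.75 CPM in DREADD Sham (n = 4) and 16.5 ± 2.89 CPM in CAG-GFP Sham (n = 3). When both copies were summed, the fitted differences of CAG-GFP Pilo and of DREADD Sham from CAG-GFP Sham became -0.21 and -1.11 on the log2 scale (SE 1.54 each). The positive direction of Abcb1a over CAG-GFP Sham thus did not hold for the pair. DREADD Pilo differed from CAG-GFP Pilo by 1.49 (SE 1.55) for the pair, against 6.13 (SE 3.08) for Abcb1a alone. From DREADD Sham it differed by 2.39 (SE 1.57) for the pair, against 4.55 (SE 2.87) for Abcb1a alone.

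Slc19a3 (ENSMUSG00000038496, chr1:83012523-83038448, minus strand), a thiamine transporter, had 963 of its 965 counts in DREADD Pilo. It stood at 4.23, 47.9 and 9.03 CPM in DREADD Pilo, from 85, 797 and 81 counts. In CAG-GFP Pilo it had 1 count, in CAG-GFP Pilo 3, in DREADD Sham 1 count, in DREADD Sham 2, and in CAG-GFP Sham none. Every DREADD Pilo library thus lay above every library of the other groups, a property of 0.926% of all genes tested (5.69% against CAG-GFP Pilo alone and 4.39% against DREADD Sham alone). The ratio of summed counts, scaled by library size, of DREADD Pilo to CAG-GFP Pilo was 2433, with an exact counting interval from 436. Without DREADD Pilo 2 it was 659 (from 117). Against DREADD Sham it was 2351 (from 421), and 637 (from 113) without DREADD Pilo 2. Within set 2, where CAG-GFP Pilo and DREADD Sham had no count, DREADD Pilo was at least 146-fold higher than CAG-GFP Pilo and at least 273-fold higher than DREADD Sham. DREADD Sham 3 and 4, with over 100 CPM of Cldn5 each, had no Slc19a3 count, whereas DREADD Pilo 1, with 5.12 CPM of Cldn5, had 4.23 CPM. These intervals at 95% cover counting error only, and cDNA copies made by amplification are not independent molecules.

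Ly6c1 (ENSMUSG00000079018, chr15:75044018-75048830, minus strand) encodes a surface protein of mouse brain endothelium that some leukocytes also carry. It stood at 4.62, 255 and 75.4 CPM in DREADD Pilo, at 8.37, 9.40, 96.5 and 0 CPM in CAG-GFP Pilo, at 6.41, 0, 338 and 155 CPM in DREADD Sham and at 0 in CAG-GFP Sham. With DREADD Sham at 125 ± 159 CPM (SD, n = 4), it was at least 2470-fold higher there than in CAG-GFP Sham, and at least 63.5-fold higher within set 1. CAG-GFP Pilo was at least 566-fold higher than CAG-GFP Sham (956-fold within set 1). DREADD Pilo averaged 12.6-fold CAG-GFP Pilo within set 2 and 1.40-fold without DREADD Pilo 2. It averaged 0.895-fold DREADD Sham over all libraries and 0.453-fold within set 2. Its near copy Ly6c2 had 34 counts in all, against 18701 of Ly6c1, of which 31 lay in DREADD Pilo 2.

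**Figure D4:**
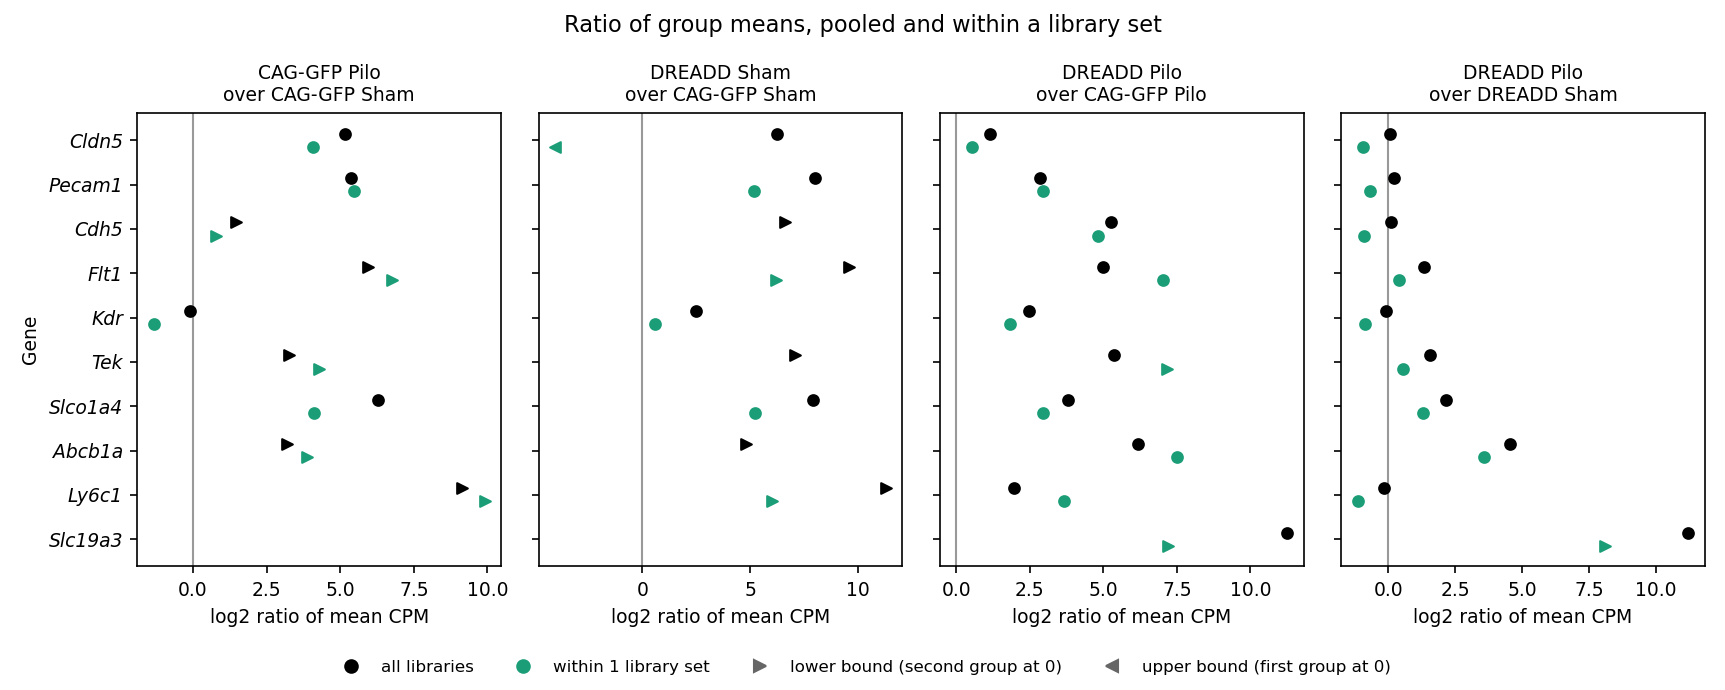
Log2 ratio of mean CPM for each gene in 4 comparisons, over all libraries (black) and within 1 library set (green), with triangles for bounds where a group had no counts. For Slc19a3 the pooled ratios are of summed counts scaled by library size. Ratios against CAG-GFP Sham are above 0 for nearly all genes when pooled, and within set 1 Kdr moves further below 0 in CAG-GFP Pilo and Cldn5 falls below 0 in DREADD Sham.

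Read across the 10 genes, the median log2 ratio of CAG-GFP Pilo to CAG-GFP Sham was 5.18 (9 genes with a ratio, bounds included, 8 above 0), against 0.38 over all 18676 genes tested. Between DREADD Sham and CAG-GFP Sham it was 7.06 (9 of 9 above 0), against 0.51. Within set 1, 8 of 9 and 5 of 6 were above 0, with a median of 5.19 for DREADD Sham. For DREADD Pilo over CAG-GFP Pilo it was 4.38 (10 of 10), against 0.29. It was 4.23 within set 2 (10 of 10) and 2.00 without DREADD Pilo 2 (9 of 10). Between DREADD Pilo and DREADD Sham it was 0.78 (8 of 10), against 0.07, but this direction rested on 1 library. Without DREADD Pilo 2 it was -1.18 (2 of 10, Slco1a4 and Slc19a3), within set 2 it was -0.13 (5 of 10), and without DREADD Pilo 2 and DREADD Sham 3 and 4 it was 4.06 (10 of 10). That last value sets DREADD Pilo libraries of set 2 against DREADD Sham libraries of set 1. Each comparison shares a group of libraries with 2 of the others. All 10 genes passed the filter on low counts.

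None of the 10 genes passed the edgeR quasi-likelihood test at an adjusted p of 0.05 over all genes in any comparison. Between CAG-GFP Pilo and CAG-GFP Sham, no member had its groups apart. None could have every CAG-GFP Pilo library the higher, since CAG-GFP Pilo 4 had no count of any member. The 6.55% of all genes with that pattern is therefore no comparison for the members. Of the 10, 0 passed, against 0.241% of all genes, 3 had an unadjusted p under 0.05, against 15.4%, and DESeq2 called 3, against 12.9%. Between DREADD Sham and CAG-GFP Sham, 0 of 10 passed, against 0.3%, 6 had an unadjusted p under 0.05, against 18.6%, and DESeq2 called 6, against 15.7%. Between DREADD Pilo and CAG-GFP Pilo, between DREADD Pilo and DREADD Sham, and for the interaction, the difference between the seizure effect in DREADD and in CAG-GFP cells, 0 of 10 passed, against 0.0% of all genes each. An unadjusted p under 0.05 was reached by 1 member in each, against 5.36%, 5.18% and 11.7% of all genes. DESeq2 called 1, 1 and 2 members, against 1.24%, 0.964% and 8.4% of all genes. It was run on every gene with a count, but all DESeq2 shares given here divide its calls by the 18676 genes kept for edgeR. They are thus not shares of the genes that DESeq2 tested, and Abcb1a had no adjusted p from DESeq2. Since results of these data were known when the genes were chosen, nothing is read from these counts. The biological coefficient of variation within groups was 1.47 over all genes.

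The composition of the endothelial signal also varied between libraries. Ly6c1 took 65.3% of the summed CPM in CAG-GFP Pilo 3 and 51.8% in DREADD Sham 3, Slco1a4 took 66.2% in CAG-GFP Pilo 2 and 52.9% in DREADD Pilo 3, and Cldn5 took 78.9% in CAG-GFP Pilo 1. In the 2 DREADD Pilo libraries with the most signal, DREADD Pilo 2 and 3, all 10 genes contributed. Kdr took 33.2% in DREADD Sham 1, which had no Cldn5, Pecam1, Cdh5 or Tek count.

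**Figure D5:**
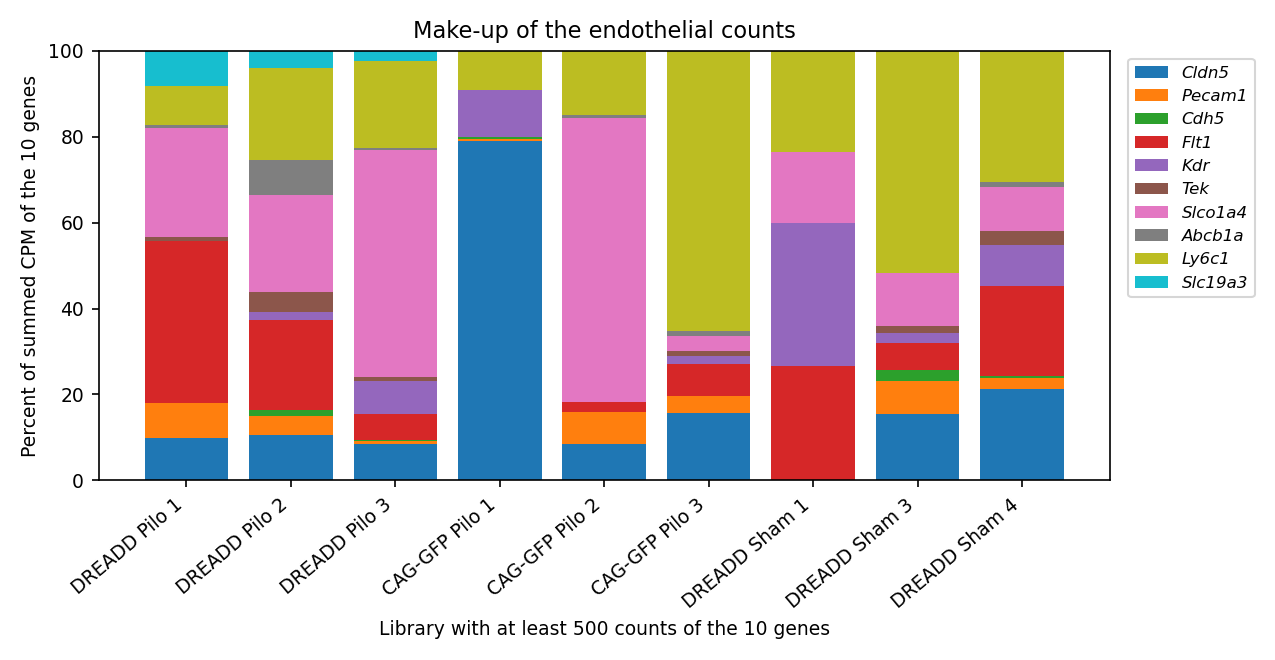
Share of each gene in the summed CPM of the 10 genes, for the libraries with at least 500 counts of these genes. The largest share belongs to Cldn5 in CAG-GFP Pilo 1 (78.9%), to Slco1a4 in CAG-GFP Pilo 2 (66.2%) and to Ly6c1 in CAG-GFP Pilo 3 (65.3%), so no fixed proportion held across libraries.

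Correlations between members over the 14 libraries, computed from log2 CPM (prior count 2), are given as a description, since the libraries differ in depth and in set. The closest pairs were Cdh5 and Tek (r = 0.899), Flt1 and Ly6c1 (r = 0.895) and Flt1 and Tek (r = 0.884). The median correlation with the other members was highest for Tek (0.800) and Ly6c1 (0.777) and lowest for Slc19a3 (0.436) and Kdr (0.425). Among 12777 other genes with a mean of at least 5 CPM, the genes most like the mean of the members were Adgrl4 (r = 0.947), Ptprb (0.935), Adgrf5 (0.922), Atp10d (0.917), Ebf1 (0.914), Cd93 (0.907), Fn1 (0.898), Rnf216 (0.884), Itm2a (0.868) and Icam2 (0.855). Of these, Adgrl4, Ptprb, Cd93, Itm2a and Icam2 stand on a list of other endothelial genes, of which 78 could be ranked. Adgrl4 and Ptprb are an adhesion receptor and the VE-protein tyrosine phosphatase of endothelium. Without DREADD Pilo 2 and DREADD Sham 4, the libraries farthest from the median, r of the 10 genes ran from 0.763 (Itm2a) to 0.958 (Atp10d).

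Of the other genes of endothelium and barrier, 109 were in the table and 103 were tested, and none passed the edgeR test in any comparison. At an unadjusted p under 0.05 there were 16 between CAG-GFP Pilo and CAG-GFP Sham, 26 between DREADD Sham and CAG-GFP Sham, 7 between DREADD Pilo and CAG-GFP Pilo, 1 between DREADD Pilo and DREADD Sham and 6 for the interaction, out of 103 each. Over all genes the shares at that p were 15.4%, 18.6%, 5.36%, 5.18% and 11.7%, so 16 of 103 lay at the background. DESeq2 called 17, 22, 1, 0 and 8, against 12.9%, 15.7%, 1.24%, 0.964% and 8.4% of all genes. Their classes did not lean the same way. Between CAG-GFP Pilo and CAG-GFP Sham, the mean was higher for 14 of 18 junction and adhesion genes (median log2 ratio 1.96) and lower for 11 of 14 genes of Wnt signalling, which keeps the barrier in place (median -1.38). Between DREADD Sham and CAG-GFP Sham it was higher for 14 of 18 junction genes (median 4.74) and 12 of 15 transcription factors (2.25), and lower for 9 of 14 Wnt genes (-0.94). These medians stand beside 0.38 and 0.51 over all genes tested. Between DREADD Pilo and CAG-GFP Pilo it was higher in 17 of 18 junction genes, 14 of 16 receptors and ligands, 11 of 14 Wnt genes, 16 of 19 transporters and 14 of 15 transcription factors, with class medians of 1.33 to 2.84 beside 0.29 over all genes. Between DREADD Pilo and DREADD Sham the class medians ran from -0.24 (Wnt genes) to 0.62 (junction genes), beside 0.07.

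The 2 most abundant genes of each class were described by their levels. S1pr1, a sphingosine-1-phosphate receptor that astrocytes also express, averaged 109 ± 126 CPM in DREADD Pilo (SD, n = 3), 80.3 ± 82.9 in CAG-GFP Pilo (n = 4), 132 ± 128 in DREADD Sham (n = 4) and 575 ± 24.9 CPM in CAG-GFP Sham (n = 3). It was thus highest in CAG-GFP Sham, where all members but Kdr had their lowest mean. Vcam1, a leukocyte adhesion molecule, averaged 168 ± 146 CPM in DREADD Pilo and 38.4 ± 34.3 CPM in CAG-GFP Pilo, and 59.9 ± 30.9 CPM in DREADD Sham against 206 ± 36.5 CPM in CAG-GFP Sham. Tspan12, a co-receptor of norrin signalling, averaged 22.7 ± 20.1 CPM in DREADD Pilo and 6.04 ± 6.61 CPM in CAG-GFP Pilo, and 49.0 ± 47.0 CPM in DREADD Sham against 131 ± 5.37 CPM in CAG-GFP Sham. Ctnnb1 averaged 384 ± 201 CPM in DREADD Pilo and 150 ± 101 CPM in CAG-GFP Pilo, and 209 ± 77.0 CPM in DREADD Sham against 392 ± 17.0 CPM in CAG-GFP Sham. Astrocyte markers, from 10 genes, summed to 1324 to 3497 CPM in DREADD Pilo, 776 to 6286 in CAG-GFP Pilo, 1899 to 4654 in DREADD Sham and 27191 to 28446 CPM in CAG-GFP Sham, and their part in these levels was not tested.

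Jam2, a junctional adhesion molecule, averaged 94.8 ± 77.9 CPM in DREADD Pilo and 65.4 ± 37.8 CPM in CAG-GFP Pilo, and 56.2 ± 33.3 CPM in DREADD Sham against 153 ± 29.5 CPM in CAG-GFP Sham. Ramp2, a partner of the adrenomedullin receptor, averaged 150 ± 44.2 CPM in DREADD Pilo and 123 ± 30.4 CPM in CAG-GFP Pilo, and 138 ± 9.22 CPM in DREADD Sham against 239 ± 18.1 CPM in CAG-GFP Sham. Epas1, a hypoxia-inducible transcription factor, averaged 90.2 ± 61.4 CPM in DREADD Pilo and 19.2 ± 19.7 CPM in CAG-GFP Pilo, and 100 ± 97.8 CPM in DREADD Sham against 136 ± 12.8 CPM in CAG-GFP Sham. All 3 were again highest on average in CAG-GFP Sham, while Ly6e and Bsg were highest in DREADD Pilo. Ly6e, a surface protein of the same family as Ly6c1, averaged 931 ± 724 CPM in DREADD Pilo and 542 ± 62.2 CPM in CAG-GFP Pilo, and 466 ± 222 CPM in DREADD Sham against 376 ± 49.2 CPM in CAG-GFP Sham. Bsg, the immunoglobulin superfamily protein basigin, averaged 1397 ± 1648 CPM in DREADD Pilo and 555 ± 434 CPM in CAG-GFP Pilo, and 671 ± 207 CPM in DREADD Sham against 357 ± 110 CPM in CAG-GFP Sham. For Bsg, 3288 CPM in DREADD Pilo 3, the library rich in choroid plexus markers, set the DREADD Pilo mean. Of the remaining genes, Slc3a2, the heavy chain of amino acid carriers, averaged 212 ± 26.8 CPM in DREADD Pilo and 116 ± 53.8 CPM in CAG-GFP Pilo, and 212 ± 47.6 CPM in DREADD Sham against 308 ± 70.3 CPM in CAG-GFP Sham. Cav2, a caveolin, averaged 94.3 ± 65.6 CPM in DREADD Pilo and 119 ± 58.1 CPM in CAG-GFP Pilo, and 151 ± 146 CPM in DREADD Sham against 197 ± 23.5 CPM in CAG-GFP Sham. Hey1, a Notch target, averaged 16.4 ± 3.95 CPM in DREADD Pilo and 25.1 ± 18.6 CPM in CAG-GFP Pilo, and 58.6 ± 49.6 CPM in DREADD Sham against 26.9 ± 1.31 CPM in CAG-GFP Sham. Of these 3 genes, Slc3a2 and Cav2 were highest on average in CAG-GFP Sham and Hey1 in DREADD Sham. All of these means carry their SD and are over 3 libraries for DREADD Pilo and CAG-GFP Sham and 4 for the other groups.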

How the data were processed

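Gene counts of 14 libraries were analysed as deposited by the authors: whole-number counts per gene, not normalised, for 43346 mouse Ensembl identifiers. The submitters' processing notes name Bowtie2, featureCounts, Subread, edgeR and R 4.1.1, without roles, and the human build hg38, although every identifier is a mouse one. Nothing used here gives the annotation release, the strand setting or the rule for reads with several matches, so counts of overlapping, antisense or near-identical genes are uncertain. Symbols and positions came from GENCODE M21 (GRCm38), which matched 42462 identifiers and left 884 unmatched.

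The members and all gene lists were chosen with earlier results of these data known. Other genes were named by rule: the 2 most abundant per class of other endothelial genes, any of them past the test, and the 10 genes most like the mean of the members. Names outside this rule were chosen after their values were seen.

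The test was the quasi-likelihood test of edgeR 4.0.16 in R 4.3.3, with TMM factors, filterByExpr by group (18676 genes kept), 1 fit over all 14 libraries and Benjamini-Hochberg adjustment over all genes tested. It was run on simulated counts with a smaller spread than these data and without library sets. That run does not show how the test performs on these libraries. Ratios are of group mean CPM, and where a group had no count the bound uses a floor of 3 counts summed over the group. Where a group had counts but no more than 3, the ratio is of summed counts scaled by library size. Alternatives were DESeq2 1.42.0, RLE factors, no filter, a replicate block, library set as a covariate or as a limit, 2 groups only, near copies summed and each library left out. No pair of libraries in a group agreed within counting noise (lowest chi-square per degree of freedom 87.3).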

Additional observations from a re-analysis of the deposited data

Results flagged for a closer look

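A library was marked where, in a group of 4, its gap to the nearest other library exceeded 0.829 of the group's range (Dixon's limit). Of 20 groups of 4 examined, 8 held such a value. The usual chance rate of about 1 in 20 does not apply to sparse counts, and in 4 of the 8 the other 3 libraries were all at 0, which puts any count past the limit. Among CAG-GFP Pilo libraries these were CAG-GFP Pilo 3 for Flt1 (10.9 CPM), Tek (1.95 CPM), Ly6c1 (96.5 CPM) and Slc19a3 (0.0247 CPM, which is 1 count), and CAG-GFP Pilo 2 for Slco1a4 (41.6 CPM). Among DREADD Sham libraries these were DREADD Sham 3 for Cdh5 (17.5 CPM), DREADD Sham 4 for Abcb1a (5.66 CPM) and DREADD Sham 2 for Slc19a3 (0.0325 CPM, which is 1 count). CAG-GFP Pilo 3 had the most genes detected, 20863, and CAG-GFP Pilo 4, at 0 for every member, the fewest, 9372.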

How the results depend on the processing

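None of the 10 members and none of the other endothelial genes passed the edgeR test with RLE factors, without a filter, with the replicate block, with library set as a covariate or with near copies summed. DESeq2 called 3 members between CAG-GFP Pilo and CAG-GFP Sham (Flt1, Slco1a4, Ly6c1), 6 between DREADD Sham and CAG-GFP Sham, 1 between DREADD Pilo and CAG-GFP Pilo (Slc19a3), 1 between DREADD Pilo and DREADD Sham (Slc19a3) and 2 for the interaction (Slc19a3, Ly6c1), and gave Abcb1a no adjusted p. Of the other endothelial genes DESeq2 called 17, 22, 1 (Foxf2), 0 and 8 in these comparisons, and of all genes 2412, 2932, 231, 180 and 1569, where edgeR called 45, 56, 0, 0 and 0. The cause of this gap was not tested.

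For edgeR, between CAG-GFP Pilo and CAG-GFP Sham the count over all genes was 1 with the replicate block, 89 with library set as a covariate, 471 within set 1, 168 with only the 2 groups and 24 without DREADD Pilo 2, DREADD Sham 3 and DREADD Sham 4. Between DREADD Sham and CAG-GFP Sham it was 0 with the replicate block, 146 with the set covariate, 530 within set 1, 647 with only the 2 groups, 0 without DREADD Sham 3 and 4 and 0 when DREADD Pilo 2 was left out too; both of these leave-outs were chosen after seeing the data. The set covariate gave 2 genes between DREADD Pilo and DREADD Sham and 11 for the interaction, for which no filter gave 3. No set held all 4 groups, so the interaction has no value within a set. Same-numbered libraries did not deviate together (r -0.381 to 0.115). For CAG-GFP Pilo and DREADD Sham this cannot decide on pairing, since their same-numbered libraries fall in opposite sets. Between the other groups r was -0.104 to 0.115, so no pairing by the numbers in the sample titles was seen there. The library names number some CAG-GFP Pilo libraries otherwise, and pairing by those names was not examined.

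With 1 library left out, these counts ran from 3 to 151, from 6 to 260 and, for the interaction, from 0 to 1, each highest without DREADD Pilo 3. Of 14 leave-outs, 12 moved the first count by over 1.5 times (all but DREADD Pilo 1 and 2) and 12 the second (all but DREADD Pilo 1 and CAG-GFP Pilo 3). The count of other endothelial genes between DREADD Sham and CAG-GFP Sham ran from 0 to 1, the 1 being Mcam without DREADD Pilo 3. Mcam, the adhesion molecule CD146, was also the 1 called within set 1, and with only the 2 groups it was among 3, with Sox18 and Slco1c1. For Mcam, DREADD Sham had a mean of 39.1 ± 30.0 CPM (n = 4) and CAG-GFP Sham one of 0.290 ± 0.237 CPM (SD, n = 3). Of 1161 fitted fold changes of members under these alternatives, 1083 kept their sign and 99 moved by over 1 SD. Leaving out DREADD Pilo 2 changed the sign for 6 members between DREADD Pilo and DREADD Sham. With RLE factors the median of all genes moved by up to 0.10 on the log2 scale, and Cdh5 between DREADD Pilo and DREADD Sham changed sign. Without DREADD Sham 3 and 4, Cldn5, Cdh5, Tek and Abcb1a between DREADD Sham and CAG-GFP Sham changed sign. Cdh5, Tek and Abcb1a then had no count in either group. Over all comparisons, that setting changed the sign of 11 of 50 member values and moved 18 by over 1 SD. Low counts limit the folds over CAG-GFP Sham, where Cldn5 had 42 counts, Slco1a4 had 9, Pecam1 had 4 and 6 members had 0. The CAG-GFP Sham libraries were not shallow, at 27965232 to 28432365 total counts, against 10613291 to 19595245 in set 2.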
